A study of Homo sapiens with 6 samples.

Results

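Aminoacyl-tRNA synthetases are the enzymes that join each amino acid to its tRNA, and the genes that encode them were followed here in uveal melanoma cells exposed to a focal adhesion kinase inhibitor. Members were the rows of the deposited table whose symbol is that of a synthetase gene on a fixed list, and all 36 symbols of that list had a row among the 12306 of the table. They comprised 20 genes of cytosolic enzymes and 16 genes of mitochondrial enzymes, whose symbols end in 2. The cells were 92.1, an established human uveal melanoma line, kept in serum-containing medium. The VS-4718 group had been given 1 µM of VS-4718, a small molecule that inhibits focal adhesion kinase, for 2 h, and the vehicle group had been given DMSO for 2 h. Each group held 3 libraries, which the design text calls independent. Whether each was a culture of its own is not stated, and the p-values below therefore reflect library-to-library spread that may be only technical. All libraries come from 1 cell line, so the values describe this line only.

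In the cytosol, each synthetase charges tRNA for the translation of nuclear-encoded messages, and several of the enzymes are held with scaffold proteins in a multisynthetase complex. The mitochondrial enzymes are made from separate nuclear genes for most amino acids and serve the few proteins encoded by mitochondrial DNA. A few genes serve both compartments: GARS and KARS each encode a cytosolic and a mitochondrial form of the glycyl or lysyl enzyme. When amino acids run short or the endoplasmic reticulum is stressed, the transcription factor ATF4 raises many cytosolic synthetase genes through a composite C/EBP-ATF response element near their start sites.

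The response element was looked for in human promoters because it is the known route from ATF4 to these genes. RefSeq promoters (GRCh38.p14, 250 bases before to 50 after a start) were searched on both strands for TGATGNAA, and 30 of the 36 genes had at least 1 promoter in the table; DARS, LARS, VARS, YARS, AARS2 and VARS2 had none there. Among the cytosolic genes listed here as ATF4-responsive from general knowledge of the pathway, 7 of the 10 with a promoter held the element: AARS, CARS, GARS, IARS, MARS, NARS and TARS. None of the 6 other cytosolic genes with a promoter held it, and of 14 mitochondrial genes with one only YARS2 did. Over promoters rather than genes, 8 of 39 (20.5%) of the members' promoters held it, against 3.62% of all 35116. A match is a description of the sequence and does not show that ATF4 binds there. The matches are printed in the direction in which the element reads TGATGNAA, with the element in capitals and its surrounding bases in lower case, so that each searched-for core can be seen in its own context; the search itself fixed all but 1 base of the core.
AARS: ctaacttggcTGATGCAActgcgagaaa
CARS: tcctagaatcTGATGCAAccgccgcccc
GARS: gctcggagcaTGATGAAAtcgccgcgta
IARS: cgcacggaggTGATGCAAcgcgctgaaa
MARS: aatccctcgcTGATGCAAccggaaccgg
NARS: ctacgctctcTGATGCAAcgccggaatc
TARS: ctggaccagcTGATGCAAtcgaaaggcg
YARS2: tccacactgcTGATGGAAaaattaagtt

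The printed stretches lie at chr16:70289676-70289703 for AARS, chr11:3057408-3057435 for CARS and chr9:92293693-92293720 for IARS, all on the plus strand. The others are on the minus strand, at chr7:30594835-30594862 for GARS, chr12:57488054-57488081 for MARS and chr18:57621805-57621832 for NARS. TARS has it at chr5:33440957-33440984 and YARS2 at chr12:32756077-32756104, likewise on the minus strand. In CARS, IARS, MARS, NARS and TARS the element lay within 22 bases of an annotated start, in GARS 26 to 33 bases before one, and in AARS and YARS2 between 180 and 197 bases before one. The element read TGATGCAA in 6 of the 8 genes, TGATGAAA in GARS and TGATGGAA in YARS2.

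Values are log2 of a TPM-like abundance, which is scaled by transcript length. Read totals cannot be recovered from it, so depth is unknown and counting intervals are not given. The libraries were alike: put back on the linear scale, their columns summed to between 836527 and 840714. Rank correlations across genes (Spearman) were 0.985 to 0.988 within a group and 0.984 to 0.988 between groups. The melanocyte genes PMEL, TYRP1, SOX10 and MITF had mean levels of 12.24, 11.14, 8.17 and 5.67 log2 units in VS-4718 libraries and 12.21, 11.21, 8.20 and 5.55 in vehicle libraries. Among the other genes of the lineage that were looked at, MLANA was nearly missing, at -1.24 with VS-4718 and -1.82 with vehicle. TYR was nearly missing too, at -3.51 with VS-4718 and -2.20 with vehicle. DCT was low, at 0.39 with VS-4718 and 0.63 with vehicle. Summed over the 3 of 4 fibroblast genes with a row, levels were 0.85 to 0.947 TPM-like units with VS-4718 and 0.147 to 1.02 with vehicle. PECAM1, the 1 of 3 endothelial genes with a row, had 3.62 to 8.42 TPM-like units with VS-4718 and 4.78 to 7.23 with vehicle, and PTPRC, the 1 of 3 immune genes with a row, had 0.0451 to 0.0592 with VS-4718 and 0.0259 to 0.142 with vehicle. None of 3 epithelial genes had a row. Rows carry mouse-style symbols in capitals although the labels give human cells and GRCh38, and the transcript set behind the rows is not stated. All 36 symbols also belong to human genes, 18 as current symbols and 18 as older ones (AARS for AARS1). Levels of different rows are therefore compared only loosely, and conditions are compared within a row.

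The cytosolic synthetases were abundant and close together in level. WARS, for tryptophan, was the lowest, at 4.88 ± 0.01 log2 units (SD, n = 3) with VS-4718 and 4.91 ± 0.05 with vehicle. QARS, for glutamine, was the highest, at 7.81 ± 0.07 with VS-4718 and 7.77 ± 0.02 with vehicle. SARS, for serine, followed at 7.59 ± 0.06 with VS-4718 and 7.57 ± 0.06 with vehicle. YARS (7.41 ± 0.08 with VS-4718 and 7.50 ± 0.04 with vehicle) and VARS (7.42 ± 0.08 with VS-4718 and 7.39 ± 0.07 with vehicle) came next and differed from each other by less than their SD in VS-4718 libraries. On the linear scale WARS had a geometric mean of 29.5 TPM-like units with VS-4718 and 30.01 with vehicle, and QARS one of 223.7 with VS-4718 and 217.8 with vehicle. By mean level the cytosolic rows stood between percentiles 73.85 and 94.98 of all rows.

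Mitochondrial synthetase rows covered a far wider range. LARS2, for leucine, was the highest of all 36 members, at 8.06 ± 0.17 log2 units with VS-4718 and 7.87 ± 0.18 with vehicle. At the other end IARS2, for isoleucine, was nearly missing, at -2.23 ± 0.63 with VS-4718 and -2.79 ± 0.17 with vehicle. AARS2 (0.66 ± 0.21 with VS-4718 and 0.48 ± 0.25 with vehicle) and MARS2 (-0.32 ± 0.16 with VS-4718 and 0.07 ± 0.13 with vehicle) were the other rows below the level that was tested. A test was made only for rows with a mean over 0.70 log2 units, above the lowest 25% of the table, which left 33 of the 36 members: all 20 cytosolic rows and 13 mitochondrial ones.

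**Figure D1:**
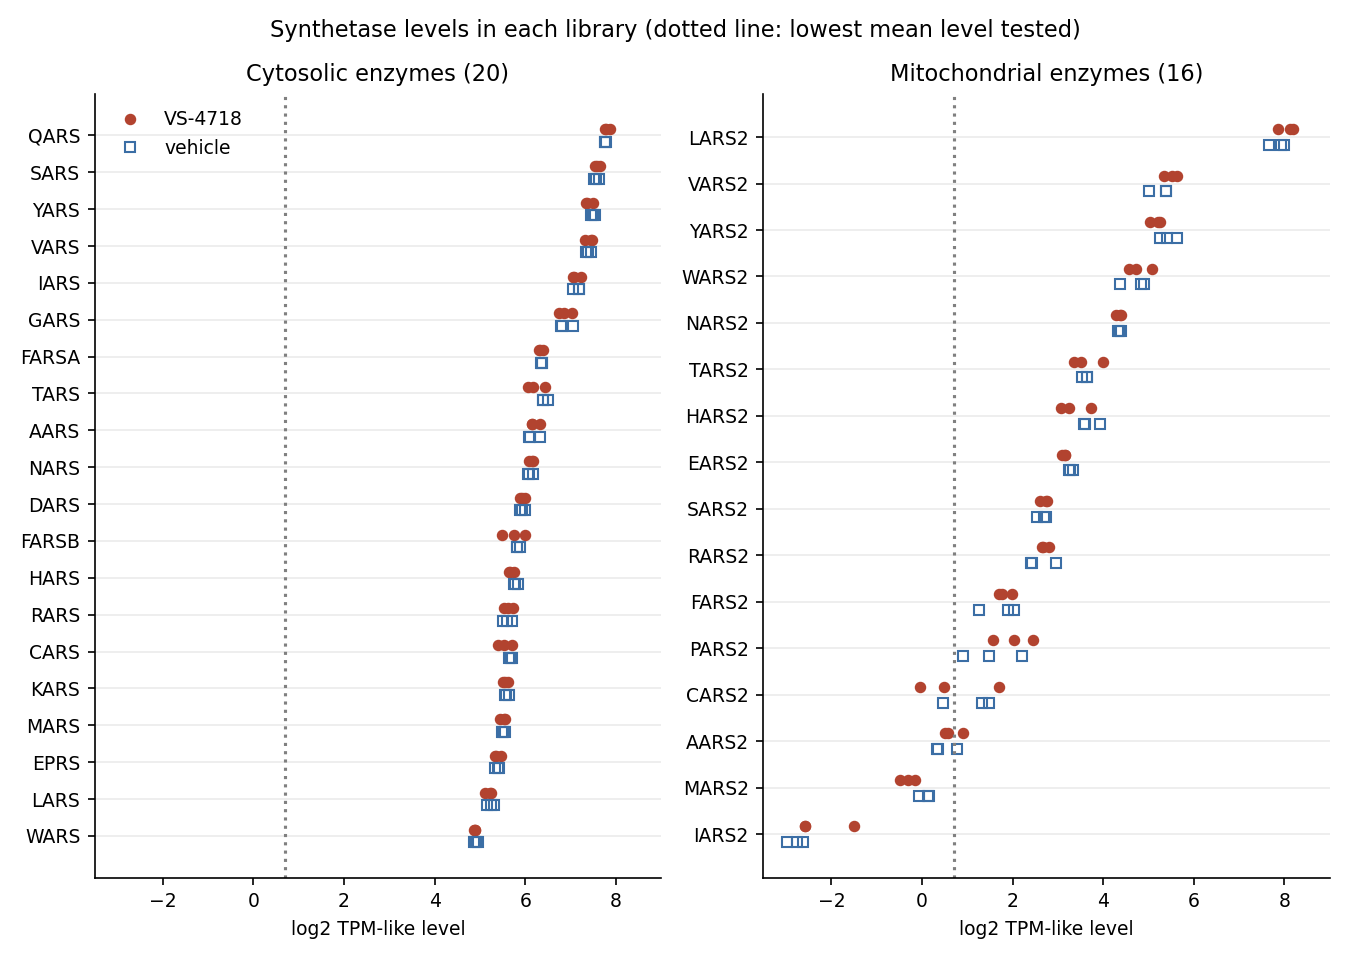
Log2 TPM-like level of each synthetase row in each library, cytosolic enzymes left and mitochondrial enzymes right, ordered by mean level; filled circles are the 3 VS-4718 libraries and open squares the 3 vehicle libraries, and the dotted line marks the level of 0.70 above which rows were tested. The cytosolic rows sit between WARS and QARS with groups overlapping in every one, while the mitochondrial rows reach from IARS2 to LARS2.

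The main comparison asked whether 2 h of VS-4718 shifted the messages of these enzymes, and no member passed. With limma and Benjamini-Hochberg adjustment over all 9229 rows tested, 0 of 33 synthetase genes were called at 0.05, where 12 rows (0.13%) were called in all. The smallest adjusted p among members was 0.507, for YARS2. At an unadjusted p under 0.05 there was 1 member, YARS2, which was lower with VS-4718; among all rows tested 9.76% met that, 6.74% as lower and 3.02% as higher. Groups did not overlap in 2 of the 33, YARS2 and EARS2, both lower with VS-4718, against 11.2% of all rows that did not overlap and were lower and 5.15% that were higher. An exact permutation of 3 libraries against 3 cannot go below a p of 0.1, so no single gene was tested that way.

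Among the cytosolic enzymes the differences were small and their intervals narrow. The differences, VS-4718 minus vehicle, ran from -0.21 for TARS to 0.04 for QARS. In 13 of 20 the mean was lower with VS-4718, but with the libraries shifted to the same median only 5 of 20 were lower. Over all rows tested, 58.2% were lower as deposited and 4363 of 9229 with that shift. The median of the 20 differences was -0.02, beside -0.03 over all rows tested. In 16 of 20 the difference was smaller than its own standard error, beside 5038 of all 9229 rows tested. The 95% intervals (limma, not adjusted for the number of genes) stayed within 0.5 log2 units on either side of 0 for all 20 and within 0.3 for 17. Over all 9229 rows tested, 5626 stayed within 0.5 and 2555 within 0.3. A p that misses the threshold does not show that the levels were equal. The intervals rest on the deposited scaling and on library-to-library spread that may be only technical. They may therefore be too narrow for a difference between cultures.

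TARS, for threonine, had the most negative cytosolic difference. Its levels were 6.164, 6.058 and 6.434 log2 units with VS-4718, against 6.384, 6.396 and 6.501 with vehicle. The third VS-4718 library lay among the vehicle libraries and the other two lay below them, so the groups overlapped. The difference was -0.21 (SE 0.10, adjusted p = 0.572 in limma), and -0.32 to -0.13 with a library left out. CARS, for cysteine, followed at -0.13 (SE 0.09; -0.21 to -0.06 with a library left out), FARSB, a subunit of the phenylalanyl enzyme, at -0.11 (SE 0.12), HARS, for histidine, at -0.10 (SE 0.06) and YARS, for tyrosine, at -0.09 (SE 0.06). FARSA, the partner subunit of FARSB in the same enzyme, stood at -0.02 (SE 0.05).

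QARS showed the most positive cytosolic difference and was among the most precisely measured. Its levels were 7.78, 7.88 and 7.76 log2 units with VS-4718, against 7.79, 7.76 and 7.76 with vehicle. The second VS-4718 library was the highest of the 6 and the rest were nearly equal. The difference of 0.04 had an SE of 0.05 (adjusted p = 0.823 in limma) and a 95% interval of -0.08 to 0.15.

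Members of the multisynthetase complex had small differences to both sides of 0. That complex joins the enzymes encoded by DARS, EPRS, IARS, KARS, LARS, MARS, QARS and RARS. Their 8 differences ran from -0.04 for LARS to 0.04 for QARS. All 8 were smaller than their standard error, beside 5038 of all 9229 rows tested. All 8 intervals stayed within 0.3 log2 units of 0, beside 2555 of all rows tested. Averaged over the 8 rows, the level was 6.003, 5.985 and 6.06 log2 units in the VS-4718 libraries and 6.04, 6.04 and 5.99 in the vehicle libraries, which overlap. The 12 cytosolic enzymes outside the complex averaged 6.35, 6.30 and 6.36 with VS-4718, against 6.39, 6.39 and 6.38 with vehicle. All 3 VS-4718 libraries were lower there, by a mean of 0.05 log2 units. The median of the 12 differences was -0.02 and their mean -0.05; with libraries shifted to the same median these became 0.02 and -0.0067.

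By catalytic class, the 9 class I rows and the 10 class II rows of the cytosol had median differences of -0.02 and -0.01; EPRS, whose protein holds a glutamyl enzyme of class I and a prolyl enzyme of class II, stood at 0.0049 (SE 0.07). None of these rows passed the limma test.

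Genes listed as ATF4-responsive had median differences close to those of the other cytosolic genes. Of the 12 (AARS, CARS, EPRS, GARS, IARS, LARS, MARS, NARS, SARS, TARS, WARS and YARS), 8 had a lower mean with VS-4718 and the median was -0.02; of the 8 others, 5 were lower and the median was -0.01. Both counts fall, to 3 of 12 and 2 of 8, with libraries shifted to the same median, where 4363 of all 9229 rows were lower. Among the 7 cytosolic genes whose promoter held the element printed above, differences ran from -0.21 for TARS to 0.04 for AARS with a median of -0.02. The 9 cytosolic genes with a promoter but no element ran from -0.11 for FARSB to 0.04 for QARS, with the same median of -0.02. AARS, for alanine, had 6.33, 6.14 and 6.15 log2 units with VS-4718, against 6.33, 6.10 and 6.08 with vehicle. GARS had 6.87, 6.75 and 7.03 with VS-4718, against 6.79, 7.06 and 6.81 with vehicle. In both genes the libraries of the groups interleave.

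**Figure D2:**
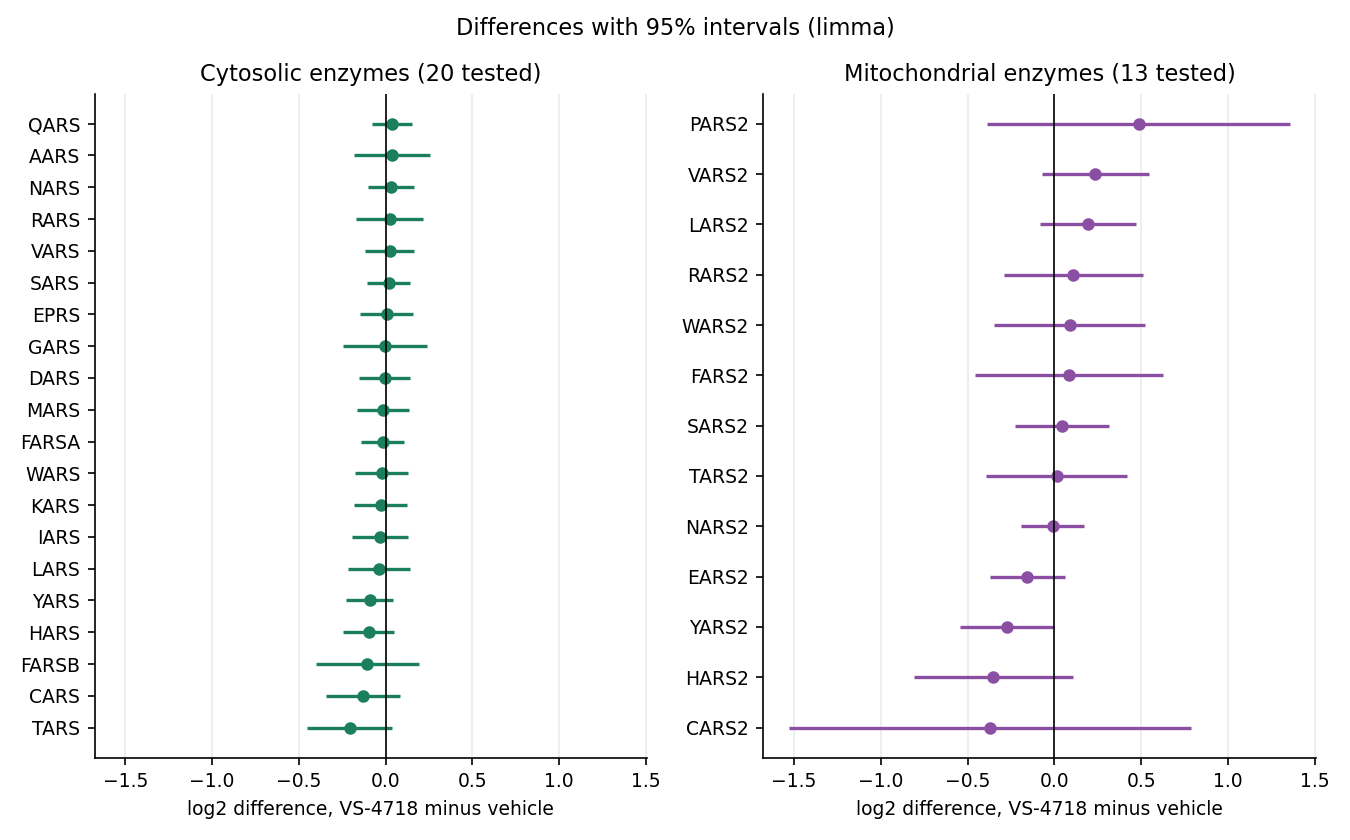
Log2 difference, VS-4718 minus vehicle, of each synthetase row that was tested, with its 95% interval from limma, for 20 cytosolic enzymes (left) and 13 mitochondrial enzymes (right) on the same scale. Cytosolic intervals cover 0 in every row and stay within 0.5 of it, whereas mitochondrial intervals are wider and only that of YARS2 ends just below 0.

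Mitochondrial enzymes scattered more widely, to both sides of 0. The 13 differences ran from -0.37 for CARS2 to 0.49 for PARS2; 5 were lower and 8 higher with VS-4718, and the median was 0.04 while the mean was 0.01. The mean had no stable sign: it ran from -0.033 to 0.066 with a library left out and was -0.032 among rows above the median level of the table, and without the first VS-4718 or the second vehicle library 7 of the 13 were lower and 6 higher. Their replicates varied more too: the median SD within a group was 0.15 log2 units with VS-4718 and 0.20 with vehicle, where the cytosolic rows had 0.07 with VS-4718 and 0.05 with vehicle. The median standard error of a difference was 0.17 for mitochondrial rows and 0.06 for cytosolic ones, beside 0.12 over all rows tested. Only 5 of the 13 intervals stayed within 0.5 log2 units of 0.

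YARS2, the mitochondrial enzyme for tyrosine, had the smallest p of all members. It had 5.21, 5.02 and 5.25 log2 units with VS-4718, against 5.63, 5.26 and 5.41 with vehicle. Every VS-4718 library lay below every vehicle library, but the highest VS-4718 library and the lowest vehicle library were only about 0.01 apart. As a ratio of geometric means the difference was -17.2% (log2 difference -0.27, SE 0.11, 95% interval -0.54 to -0.0037, adjusted p = 0.507 in limma). The unadjusted p was 0.0477, and it was over 0.05 when any 1 library but the second vehicle one was left out (5 of 6 fits), with libraries shifted to the same median and in limma without trend; the difference ran from -0.36 to -0.17 with a library left out. HARS2, for histidine, had 3.24, 3.07 and 3.73 with VS-4718, against 3.60, 3.93 and 3.57 with vehicle; 2 VS-4718 libraries were below all the vehicle ones and the third was not (difference -0.35, SE 0.19, adjusted p = 0.608; -0.54 to -0.21 with a library left out). EARS2, for glutamate, had 3.15, 3.08 and 3.15 with VS-4718, against 3.24, 3.27 and 3.34 with vehicle, groups that do not overlap (difference -0.16, SE 0.09, adjusted p = 0.620); it was singled out after its values were seen.

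CARS2 and PARS2, which had the most negative and the most positive difference, were also the least precise. CARS2, for cysteine, had -0.05, 0.50 and 1.71 log2 units with VS-4718, against 0.47, 1.32 and 1.48 with vehicle. Both its highest and its lowest value came from VS-4718 libraries, and the difference of -0.37 had an SE of 0.49; with a library left out it ran from -0.87 to 0.01. PARS2, for proline, had 2.46, 1.56 and 2.03 with VS-4718, against 2.20, 0.91 and 1.48 with vehicle (difference 0.49, SE 0.37; 0.18 to 0.82 with a library left out). VARS2, for valine, had 5.64, 5.51 and 5.34 with VS-4718, against 5.392, 5.379 and 5.004 with vehicle (difference 0.24, SE 0.13; 0.11 to 0.31 with a library left out). LARS2 had 7.86, 8.19 and 8.12 with VS-4718, against 8.001, 7.661 and 7.933 with vehicle (difference 0.19, SE 0.12; 0.09 to 0.29 with a library left out). In PARS2, VARS2 and LARS2 alike the highest library was treated and the lowest was vehicle, yet the groups overlapped and adjusted p-values in limma lay between 0.606 and 0.695. NARS2, for asparagine, had the narrowest mitochondrial interval, at -0.01 (95% interval -0.19 to 0.17). The other 5 mitochondrial rows tested had positive differences, each smaller than its standard error: RARS2, for arginine, at 0.11 (SE 0.17), WARS2 at 0.09 (SE 0.18), FARS2, for phenylalanine, at 0.09 (SE 0.23), SARS2, for serine, at 0.04 (SE 0.11) and TARS2, for threonine, at 0.01 (SE 0.17).

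Of the 3 rows too low to be tested, IARS2 was higher with VS-4718 in every library (-2.59, -1.50 and -2.59, against -2.64, -2.98 and -2.76 in vehicle libraries), and MARS2, for methionine, was lower in every library (-0.16, -0.30 and -0.49, against -0.07, 0.15 and 0.14 in vehicle libraries). AARS2, for alanine, had 0.57, 0.89 and 0.51 with VS-4718, against 0.35, 0.33 and 0.78 with vehicle, groups that overlap. These rows carry no test here.

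**Figure D3:**
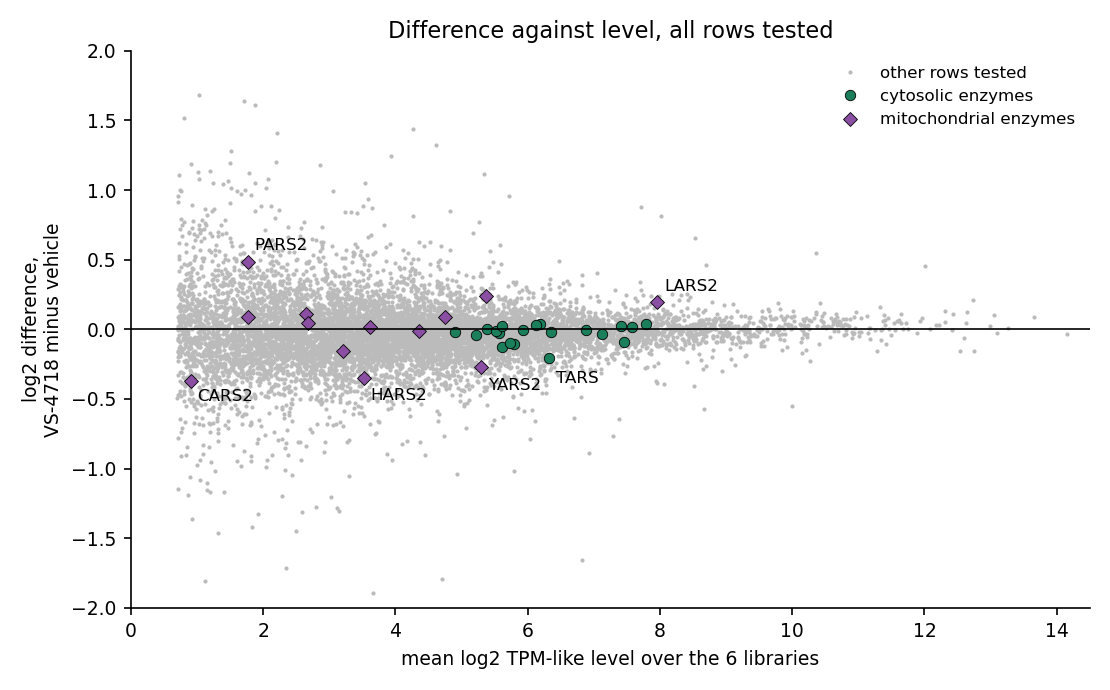
Log2 difference, VS-4718 minus vehicle, against the mean log2 level over the 6 libraries for the rows tested; grey points are other rows (9 beyond 2 log2 units are not drawn), circles cytosolic and diamonds mitochondrial synthetases. The cytosolic rows lie along the middle of the cloud, and the mitochondrial rows spread with the other rows of their level.

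Set against each other, the 2 groups of enzymes gave different answers by mean level and by the level of the median row. In each library the mean level of the 20 cytosolic rows exceeded that of the 13 mitochondrial rows by 2.49, 2.60 and 2.48 log2 units with VS-4718 and by 2.53, 2.61 and 2.55 with vehicle. The gap was 2.52 ± 0.07 (SD, n = 3) with VS-4718 and 2.56 ± 0.04 with vehicle, a difference of -0.04 that 1 scaling factor per library could not move and that was within the spread of the libraries. Taken between the median rows instead of the means, the gap was 2.78, 2.91 and 2.57 with VS-4718 and 2.49, 2.38 and 2.44 with vehicle. On that measure every VS-4718 library lay above every vehicle library, with 2.75 ± 0.17 for VS-4718 and 2.44 ± 0.06 for vehicle, a difference of 0.31. The difference between VS-4718 and vehicle was thus negative by the mean and positive between the median rows, and neither was given a test. The median mitochondrial row was not the same gene in every library. It was HARS2, EARS2 and TARS2 in VS-4718 libraries 1 to 3 and TARS2, TARS2 and HARS2 in vehicle libraries 1 to 3. That gap therefore compares different genes between libraries. Taken within genes, the median difference was -0.02 for cytosolic and 0.04 for mitochondrial rows, in the same order as the means. On the linear scale the cytosolic rows summed to 1779 ± 28 TPM-like units with VS-4718 and 1806 ± 9 with vehicle, and the mitochondrial rows to 452 ± 17 with VS-4718 and 419 ± 32 with vehicle. LARS2 alone had a geometric mean of 266.6 with VS-4718 and 233.1 with vehicle.

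Matched by amino acid, 13 pairs could be formed, and in 11 the cytosolic row was above its mitochondrial counterpart in all 6 libraries. The exceptions were leucine, where LARS lay below LARS2 by 2.86 ± 0.23 log2 units with VS-4718 and 2.63 ± 0.24 with vehicle, and tryptophan, where WARS and WARS2 were level (0.09 ± 0.27 with VS-4718 and 0.20 ± 0.25 with vehicle). NARS over NARS2 was the most even pair, at 1.79 ± 0.03 with VS-4718 and 1.75 ± 0.01 with vehicle. Within-library ratios separated the groups in 2 of the 13 pairs. Among all single rows tested, groups did not overlap in 16.4%. In both pairs the mitochondrial row was too low to be tested: MARS over MARS2 was higher with VS-4718 and IARS over IARS2 lower. HARS and HARS2 are neighbours on chromosome 5, transcribed away from each other with 84 bases between their RefSeq starts (HARS from 140673905 to 140691370 and HARS2 from 140691455 to 140699305, GRCh38.p14). HARS exceeded HARS2 by 2.34 ± 0.36 with VS-4718 and 2.09 ± 0.16 with vehicle; the similar sequences of this pair may share reads, and the deposited values cannot show how they were split.

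**Figure D4:**
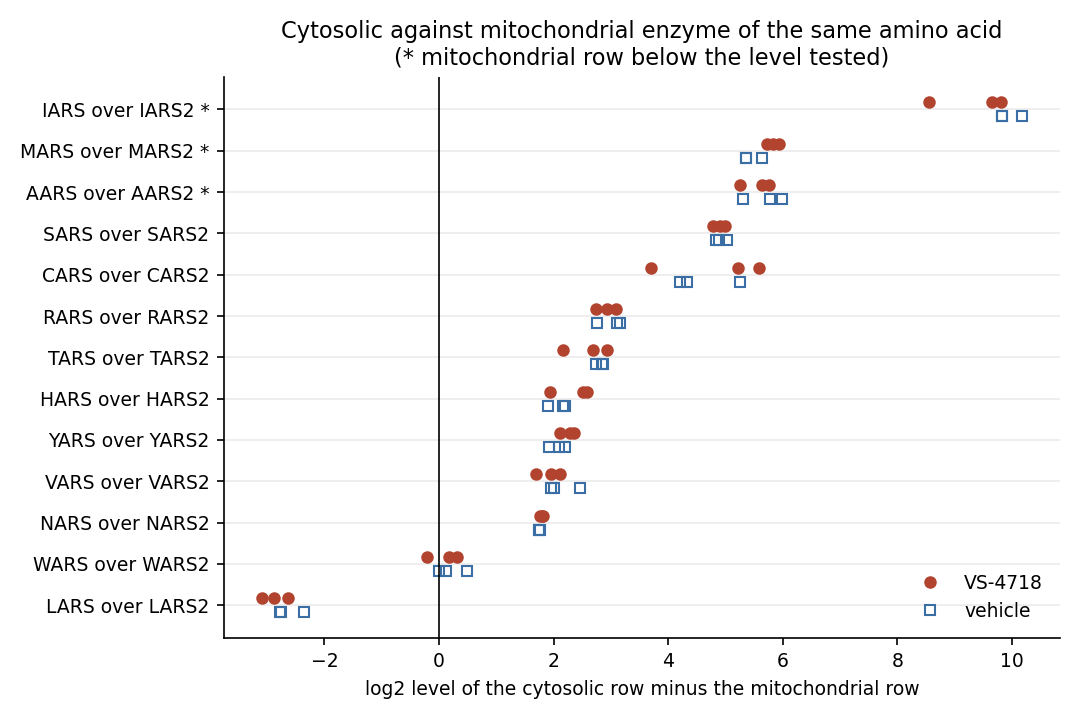
Log2 level of the cytosolic row minus that of the mitochondrial row for the same amino acid, in each library, for the 13 pairs; filled circles are VS-4718 and open squares vehicle libraries, and an asterisk marks a mitochondrial row below the level tested. Most pairs lie right of 0 with groups overlapping, LARS over LARS2 lies left of it and WARS over WARS2 spans it.

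The scaffolds of the multisynthetase complex were measured beside the enzymes. AIMP1, AIMP2 and EEF1E1 (also called AIMP3) bind the complex together, and all 3 had lower means with VS-4718, also with libraries shifted to the same median. Over all rows tested, 58.2% were lower as deposited and 4363 of 9229 with that shift. None of the 3 passed over all rows. EEF1E1 had 3.25, 3.04 and 3.37 log2 units with VS-4718, against 3.44, 3.67 and 3.50 with vehicle, groups that do not overlap (difference -0.32, SE 0.12, adjusted p = 0.490 in limma). AIMP1 had 6.80, 6.91 and 6.99 with VS-4718, against 7.002, 7.035 and 7.056 with vehicle, also without overlap (-0.13, SE 0.06, adjusted p = 0.567). AIMP2 stood at -0.09 (SE 0.07) with overlapping groups. Groups thus did not overlap in 2 of the 3, both lower, beside 11.2% of all rows that did not overlap and were lower.

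ATF4 itself and some of its targets outside this family had lower means with VS-4718. ATF4 had 8.51, 8.54 and 8.47 log2 units with VS-4718, against 8.76, 8.74 and 8.70 with vehicle. The groups were well apart (difference -0.22, SE 0.04), yet the adjusted p in limma was 0.179. DDIT3, which encodes the stress factor CHOP, had 5.06, 5.24 and 5.18 with VS-4718, against 5.66, 5.83 and 5.93 with vehicle (difference -0.65, SE 0.09, adjusted p = 0.102). ATF3, another stress-induced factor, stood at -0.46 (SE 0.14). ASNS, asparagine synthetase and a much used target of ATF4, stood at -0.17 (SE 0.11) with overlapping groups. Of 21 tested genes of that pathway other than synthetases, 0 passed, and 5 had an unadjusted p under 0.05, all lower (against 6.74% of all rows). With libraries shifted to the same median the 5 became 3, beside 883 of all 9229 rows in either direction, and MTHFD2 and SLC7A1 were lost. With a library left out, MTHFD2 and SLC7A1 were each under 0.05 in 2 of 6 fits. ATF4, DDIT3 and ATF3 were under it in all 6. Lower means were seen in 12 of 21, beside 58.2% of all rows. With libraries shifted to the same median 10 of 21 were lower, beside 4363 of all 9229 rows. Their median difference was -0.0048, beside -0.0066 for the 33 synthetase genes tested. The difference between these genes and the synthetases was not tested.

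**Figure D5:**
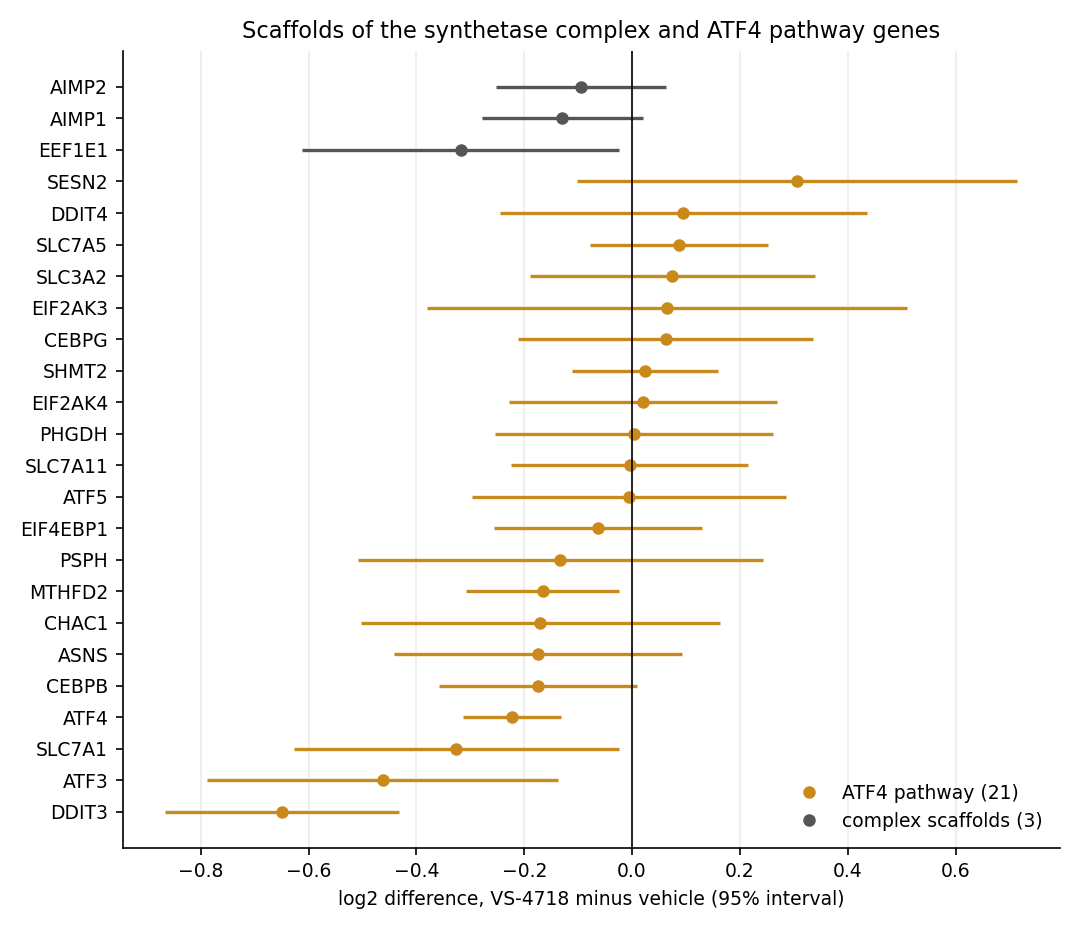
Log2 difference, VS-4718 minus vehicle, with 95% interval from limma, for the 3 scaffold genes of the synthetase complex (top) and 21 genes of the ATF4 pathway that encode no synthetase (below). DDIT3, ATF3, SLC7A1, ATF4, MTHFD2 and EEF1E1 have intervals below 0 in the main fit, and none passed after adjustment over all rows. DDIT3, ATF3 and ATF4 had an unadjusted limma p under 0.05 in all 13 other settings. MTHFD2, EEF1E1 and SLC7A1 did in 6, 7 and 8 of them.

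Genes that act before and after tRNA charging gave no call either. Of 18 tested genes for the transcription of tRNA by RNA polymerase III, 15 had lower means, beside 58.2% of all rows. Their median difference was -0.16, beside -0.03 over all rows. With libraries shifted to the same median 15 were again lower, beside 4363 of all 9229 rows. The medians then became -0.11 for these genes and 0.0097 over all rows. POLR3F, a polymerase subunit, stood at -0.35 (SE 0.14, adjusted p = 0.494 in limma) and GTF3C3, a subunit of the factor TFIIIC, at -0.38 (SE 0.19). Among 17 genes of tRNA maturation and export, 11 were lower (9 with the shift), beside 58.2% of all rows, and 1 had an unadjusted p under 0.05, beside 6.74% of all rows as lower: TRNT1, which adds the CCA end to which the amino acid is joined, at -0.75 (SE 0.28). The unadjusted limma p of TRNT1 was over 0.05 without the first or without the second vehicle library. Cytosolic elongation factor genes had 4 of 5 higher, beside 41.8% of all rows, while EEF1D was lower, at -0.19 (SE 0.10). Of the 4 higher genes, 2 had an unadjusted p under 0.05, beside 3.02% of all rows: EEF2 at 0.13 (SE 0.04) and EEF1G at 0.08 (SE 0.03). In limma without trend both had a p over 0.05, and so did EEF1G in 4 of the 6 fits that each dropped 1 library. Mitochondrial partners had 9 of 12 lower, but 5 of 12 with the shift, and 3 had an unadjusted p under 0.05, 1 higher and 2 lower, beside 3.02% of all rows as higher and 6.74% as lower. Without the second VS-4718, the first vehicle or the second vehicle library only GATB was left of the 3. GATB, a subunit of the enzyme that completes mitochondrial glutaminyl-tRNA where no mitochondrial QARS2 exists, stood at 0.43 (SE 0.13, adjusted p = 0.376), MRRF, a ribosome recycling factor, at -0.34 (SE 0.13) and GTPBP3, which modifies mitochondrial tRNA, at -0.55 (SE 0.21).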

How the data were processed

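RNA sequencing libraries from 92.1 cells, 3 per group, were used. The authors deposited log2 expression values per gene symbol; the submitters' processing notes name kallisto (no version) and GRCh38, but no index, annotation or filter. Values were used as deposited. Rows with a mean above the lowest 25% (over 0.70) were fitted together in limma 3.58.1 (R 4.3.3), as limma-trend with group as the only term; two-sided p-values got Benjamini-Hochberg adjustment over 9229 rows, with a threshold of 0.05. Members and lists were chosen with earlier results of these data known; no list was given a test. Every member was named; library values were given for members with an unadjusted p under 0.05, for the 3 largest differences in each direction and, chosen after their values were seen, for EARS2, TARS, QARS, AARS, GARS and the rows too low to test. A gene of another list that the naming rule selects is not reported here. Residuals of libraries with the same number correlated at 0.135, 0.0547 and 0.0316, so no block was used. Alternatives were another filter or none, median scaling, a pseudocount of 1, no trend, quality weights, a replicate block and each library left out. Promoters came from RefSeq (GRCh38.p14); figures were drawn with matplotlib 3.10.9.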

Additional observations from a re-analysis of the deposited data

How the results depend on the processing

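No synthetase gene passed under any of the 13 other settings run; 0 to 4 had an unadjusted limma p under 0.05, 4 with the replicate block (TARS, PARS2, VARS2 and YARS2). The count of all rows called was 12, and 0 with the replicate block (793 at an unadjusted p under 0.05) and 0 in limma without trend (910), and ran from 0 to 7 with a library left out; the cause was not tested. Same-numbered libraries did not all correlate above 0.1, so the block result is given here only, and not every library correlated best with its own number. The mean difference of the cytosolic enzymes was -0.03 and moved to 0.0096 with libraries shifted to the same median. The cytosolic minus mitochondrial difference was -0.04, 0.0004 among rows above the median level only and -0.08 to -0.01 with a library left out. The 424 member-by-setting values kept sign in 380 and reversed in 44, all in genes never called; 13 of 33 members never reversed. With the median shift DARS (0.035), FARSA (0.023), GARS (0.036), IARS (0.0089), KARS (0.012), LARS (0.00053), MARS (0.026), WARS (0.018) and NARS2 (0.031) became positive. With quality weights EPRS (-0.0060), VARS (-0.0063) and GARS (0.0091) reversed. With a library left out, reversals gave ranges of -0.025 to 0.12 for AARS, -0.038 to 0.022 for DARS, -0.029 to 0.027 for EPRS, -0.23 to 0.022 for FARSB, -0.079 to 0.082 for GARS, -0.057 to 0.0011 for KARS, -0.081 to 0.0047 for LARS, -0.039 to 0.016 for MARS, -0.032 to 0.072 for RARS, -0.011 to 0.047 for SARS, -0.0088 to 0.068 for VARS, -0.045 to 0.00043 for WARS, -0.87 to 0.013 for CARS2, -0.15 to 0.24 for FARS2, -0.035 to 0.026 for NARS2, -0.019 to 0.091 for SARS2, -0.18 to 0.14 for TARS2 and -0.075 to 0.20 for WARS2. Depth is unknown, so how far it limits the low mitochondrial rows cannot be stated.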
